A study of Rattus norvegicus with 24 samples.

Results

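Transcripts of the insulin genes and of 8 transcription factors that specify and maintain beta cells were followed in INS-1, a rat insulinoma line that makes and secretes insulin. The genes were Ins1, Ins2, Mafa, Pdx1, Neurod1, Nkx2-2, Nkx6-1, Pax6, Isl1 and Foxa2. They were taken by symbol, without a filter on their values, but the list was chosen with earlier results of these data known. They make up 10 of the 26404 genes in the deposited tables. All 10 were found and all 10 passed the filter on low counts in every comparison.

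Every group was held for 90 min at 3 mM glucose and then moved to 11 mM glucose with glucagon-like peptide-1 (GLP-1, 100 nM), the compound BMS-21 (1 µM) or DMSO as vehicle (Control). RNA was taken after 1 h or 6 h, with 4 libraries for each of the 6 groups and 24 in all. The doses of GLP-1 and BMS-21 differ, and all groups share 1 cell line, so the data describe an insulinoma and not islet tissue. Nothing in the labels says whether the 4 replicates were separate cultures, so each p-value speaks of scatter among these libraries, which may be technical.

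The rat has a pair of insulin genes, Ins1 and Ins2, that encode closely related proinsulins. Their promoters are short and are read together by Pdx1, a homeodomain factor, by Mafa, a basic leucine zipper factor, and by Neurod1, a basic helix-loop-helix factor that binds E boxes with a ubiquitous partner. Nkx2-2, Nkx6-1, Pax6 and Isl1 are further homeodomain factors that set the beta-cell programme, and Foxa2 is a forkhead factor that opens chromatin in endoderm and at Pdx1. GLP-1 is an incretin hormone that binds a receptor coupled to cAMP synthesis on beta cells, and cAMP acts in part through CREB, which binds the cAMP response element.

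The bases before each gene start were read from RefSeq (rat build GRCr8, a later build than that of the counts), where 9 of the 10 genes had an entry and Mafa had none. The pair of insulin promoters is shown because these are the sequences that the other factors act on. Capitals mark matches on either strand to the E box CATCTG, to the homeodomain core TAAT and to TGACG, the core of the cAMP response element. Neighbouring TAAT matches overlap in places. Ins1 lies on the plus strand at chr1:261185869-261186118 and Ins2 on the minus strand at chr1:207273806-207274055, and each is given 5′ to 3′.
Ins1: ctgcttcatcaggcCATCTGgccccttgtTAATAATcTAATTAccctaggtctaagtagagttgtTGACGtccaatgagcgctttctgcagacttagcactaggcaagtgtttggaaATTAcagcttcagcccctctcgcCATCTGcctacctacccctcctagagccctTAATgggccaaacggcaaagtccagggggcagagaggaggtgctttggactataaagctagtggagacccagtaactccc
Ins2: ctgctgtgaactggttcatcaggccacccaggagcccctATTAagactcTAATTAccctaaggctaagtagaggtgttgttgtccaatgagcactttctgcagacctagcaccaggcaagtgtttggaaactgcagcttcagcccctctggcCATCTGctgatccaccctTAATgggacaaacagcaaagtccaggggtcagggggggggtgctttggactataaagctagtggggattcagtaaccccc

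Over their aligned bases these sequences were 86.1% identical, with 205 identical positions, 33 mismatches and 24 gaps. Ins1 held 2 CATCTG matches and Ins2 held 1, where 14.0% of 33469 promoters of 250 bases held at least 1. TAAT matched 6 times in Ins1 and 4 times in Ins2, and it was found in 57.0% of all promoters. TGACG matched once in Ins1, starting at -185 from the gene start, and not in Ins2, and 18.2% of all promoters held it. Among the 9 promoters TGACG was also in Nkx2-2 at -25 and in Pax6 at -116. The 50 bases around these matches lie at chr3:155075623-155075672 on the minus strand and at chr3:112590458-112590507 on the plus strand. Ins1, Nkx2-2 and Pax6 were higher at 6 h with either agent. So were Pdx1, Isl1 and Foxa2, whose promoters held 0 TGACG matches. Neurod1, Nkx6-1 and Ins2, for which no rise was found, also held 0. Whether a match goes with a response was not tested. Capitals mark TGACG or its reverse complement.
Nkx2-2: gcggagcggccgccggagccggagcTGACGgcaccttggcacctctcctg
Pax6: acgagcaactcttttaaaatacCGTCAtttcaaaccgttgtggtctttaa
A match is a description of letters, and binding was not measured.

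The libraries held 10667350 to 13148970 reads and 15899 to 16223 genes with a read, so that a floor of 3 reads stands for 0.228 to 0.281 RPM, counting error only. Ins1 took 0.882 to 1.14% of all reads in a library and Ins2 took 0.114 to 0.178%. Markers of other pancreatic and stromal cells were near 0: of 19 listed genes 18 were matched, and 3 of them, Gcg, Ghrl and Sox9, had a median of at least 10 normalised counts. The alpha-cell factor Irx2 was at 0 in all libraries. Summed over the list, these markers ranged from 114 to 149 in Control at 1 h, 157 to 199 with GLP-1 and 176 to 184 with BMS-21, and at 6 h from 134 to 155, 154 to 169 and 159 to 226. Their part in the results was not tested. In bulk RNA, fewer cells that express a gene and less RNA per cell cannot be told apart. Ucn3, a marker of mature beta cells, had a median of 3.82.

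Levels below are normalised read counts, reads divided by a size factor per library with all 24 libraries scaled together. They are not divided by gene length, so they are compared within a gene only. Changes within a time are log2 differences of the normalised count plus 1, on the authors' scaling of that pair of groups. Changes across times are log2 changes from edgeR on the reads. Each is given with the standard error, and a gene passed when its Benjamini-Hochberg adjusted p over all genes tested was under 0.05.

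**Figure D1:**
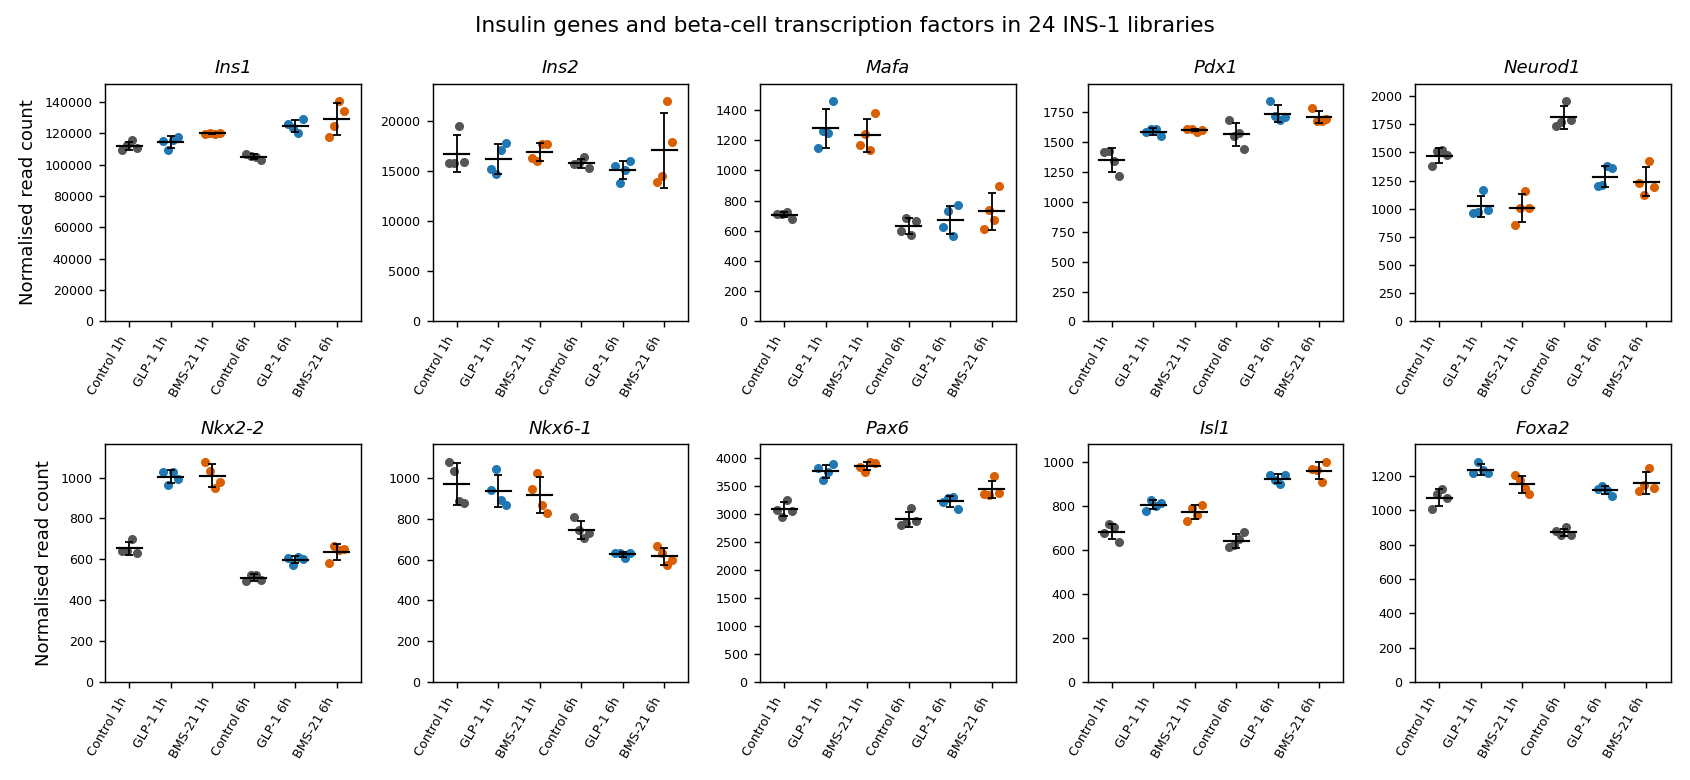
Normalised read count (y axes, starting at 0) of each of the 10 genes in the 6 groups. Points are libraries, long lines group means and error bars the SD (n = 4). Mafa and Nkx2-2 stand well above Control at 1 h with either agent, Neurod1 stands below Control in all 4 treated groups, and Isl1 and Foxa2 are clear of Control at 6 h.

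At 1 h GLP-1 changed 7 of the 10 genes. Mafa, Nkx2-2, Pax6, Pdx1, Isl1 and Foxa2 rose, Neurod1 fell, and Ins1, Ins2 and Nkx6-1 did not pass the test. Across all 12715 genes tested 6.58% passed, 4.17% higher and 2.41% lower. BMS-21 at 1 h changed 6 of the 10, Mafa, Nkx2-2, Pax6, Pdx1 and Ins1 upward and Neurod1 downward, against a background of 5.91%, 3.54% higher and 2.37% lower. The median log2 change of the 10 genes was 0.22 with GLP-1 and 0.13 with BMS-21. The medians of all genes tested were -0.0015 and 0.00056. With library totals as the scale, the 530 higher and 307 lower genes with GLP-1 became 449 and 506, and the 450 and 301 with BMS-21 became 380 and 445. Both responses at a time are taken against the same Control libraries.

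At 6 h each agent changed 8 of the 10 genes, 6 upward and 2 downward. Ins1, Pdx1, Nkx2-2, Pax6, Isl1 and Foxa2 rose and Neurod1 and Nkx6-1 fell with either agent, while Mafa and Ins2 did not pass. Far more of the transcriptome had moved by then: 31.7% of genes passed with GLP-1 (16.2% higher, 15.6% lower) and 33.6% with BMS-21 (16.8% higher, 16.8% lower). The median of the 10 genes was 0.15 with GLP-1 and 0.22 with BMS-21, and that of all genes was -0.00065 and -0.0015. Scaled by library totals, the split with GLP-1 at 6 h became 5 higher and 3 lower, since Pdx1 no longer passed and Ins2 did. That scale turned the split of all genes from 2044 higher and 1967 lower to 1451 and 2960 with GLP-1, and from 2125 and 2128 to 1510 and 3068 with BMS-21.

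**Figure D2:**
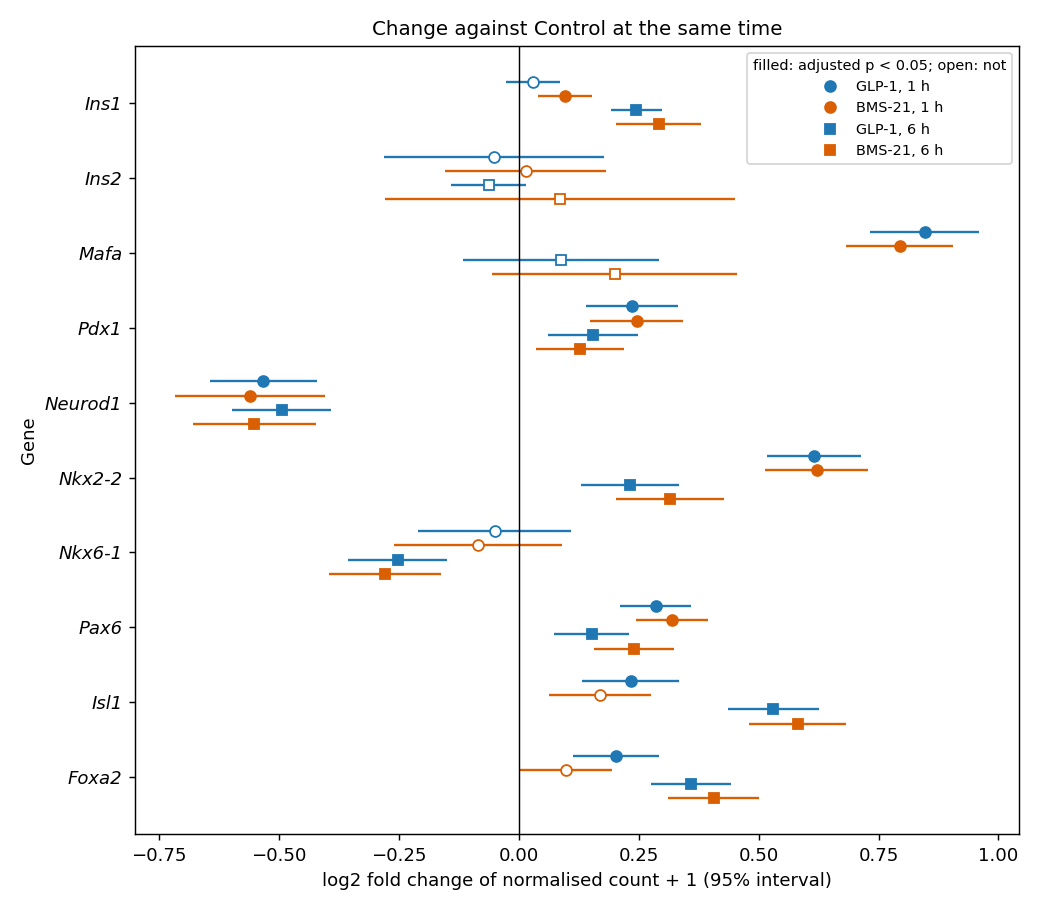
Log2 change against Control of the same time (x axis) for each gene (y axis), with 95% intervals from the limma fit. Circles are 1 h and squares 6 h, blue GLP-1 and orange BMS-21, and filled symbols passed the test. Mafa and Nkx2-2 lie farthest to the right at 1 h, Isl1 lies farthest to the right at 6 h, and Neurod1 lies to the left of 0 throughout.

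Ins1, the more read of the insulin genes in these libraries by raw count, was higher at 6 h. In Control at 6 h its 4 libraries held 106555, 105652, 105190 and 103291 normalised counts. With GLP-1 they held 126035, 123149, 120201 and 128912, and with BMS-21 117540, 124838, 140473 and 133956. Every treated library lay above every Control library. The rise was 0.25 ± 0.03 (1.19-fold, limma adjusted p = 1.78e-07) with GLP-1 and 0.29 ± 0.04 (1.22-fold, limma adjusted p = 2.06e-05) with BMS-21.

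At 1 h Ins1 differed little. Control libraries held 109475, 112234, 115442 and 110558, GLP-1 libraries 114993, 109124, 115489 and 117935, and BMS-21 libraries 119843, 119950, 119463 and 120469. The GLP-1 group overlapped Control, with a change of 0.03 ± 0.03 (95% interval -0.03 to 0.09, limma adjusted p = 0.711). The BMS-21 group did not overlap Control and rose by 0.10 ± 0.03 (limma adjusted p = 0.0321). That call was lost with edgeR (adjusted p = 0.0798), with scaling by library totals (limma adjusted p = 0.154), within replicates 3 and 4 alone (limma adjusted p = 0.232) and without any 1 of Control replicates 1, 2 and 4 or BMS-21 replicates 1, 2 and 4 (limma adjusted p = 0.0548 to 0.150).

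Ins2 did not pass in any comparison, and its libraries were the more scattered. Control at 1 h held 15751, 15739, 19489 and 15881, GLP-1 at 1 h 15133, 14627, 17046 and 17714, and BMS-21 at 1 h 16301, 15921, 17631 and 17622. At 6 h Control held 15633, 15770, 16336 and 15259, GLP-1 15506, 13792, 15079 and 15958, and BMS-21 13905, 14427, 21921 and 17814. Treated and Control groups overlapped at both times. The SD over the mean was 21.7% with BMS-21 at 6 h and 2.84% in Control at 6 h.

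For Ins2 the intervals show what this scatter leaves. The change was -0.05 with GLP-1 at 1 h (95% interval -0.28 to 0.18), 0.01 with BMS-21 at 1 h (-0.15 to 0.18), -0.06 with GLP-1 at 6 h (-0.14 to 0.02) and 0.09 with BMS-21 at 6 h (-0.28 to 0.45). With library totals the GLP-1 value at 6 h was -0.12 and passed as a decrease (limma adjusted p = 0.0212). Within replicates 1 and 2 alone, 2 libraries a group, the BMS-21 value at 6 h turned to -0.15 (limma adjusted p = 7.3e-05). Within replicates 3 and 4 alone it did not pass, though BMS-21 libraries were the higher, at 21921 and 17814 against 16336 and 15259 in Control.

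The Ins1 share of all Ins1 and Ins2 reads is free of the scaling of libraries. It was 87.4, 87.7, 85.6 and 87.4% in the Control libraries at 1 h and 87.2, 87.0, 86.6 and 87.1% at 6 h. With GLP-1 at 6 h it was 89.0, 89.9, 88.9 and 89.0%, above every Control library. The means were 89.2% ± 0.49 and 87.0% ± 0.29 (SD, n = 4), and the exact two-sided permutation p was 0.0286, the smallest that 4 against 4 allow, or 0.143 after adjustment over 5 such comparisons. With BMS-21 at 6 h the share was 88.5% ± 1.44 (exact permutation p = 0.143, adjusted 0.357), with libraries at 89.4, 89.6, 86.5 and 88.3%, the third of these below all of Control at 6 h (lowest 86.6%) but not below the 85.6% of a Control library at 1 h. The library kit does not mark strand and reads shared by these near-identical transcripts can be counted to either gene or to neither, so the split between Ins1 and Ins2 is uncertain.

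**Figure D3:**
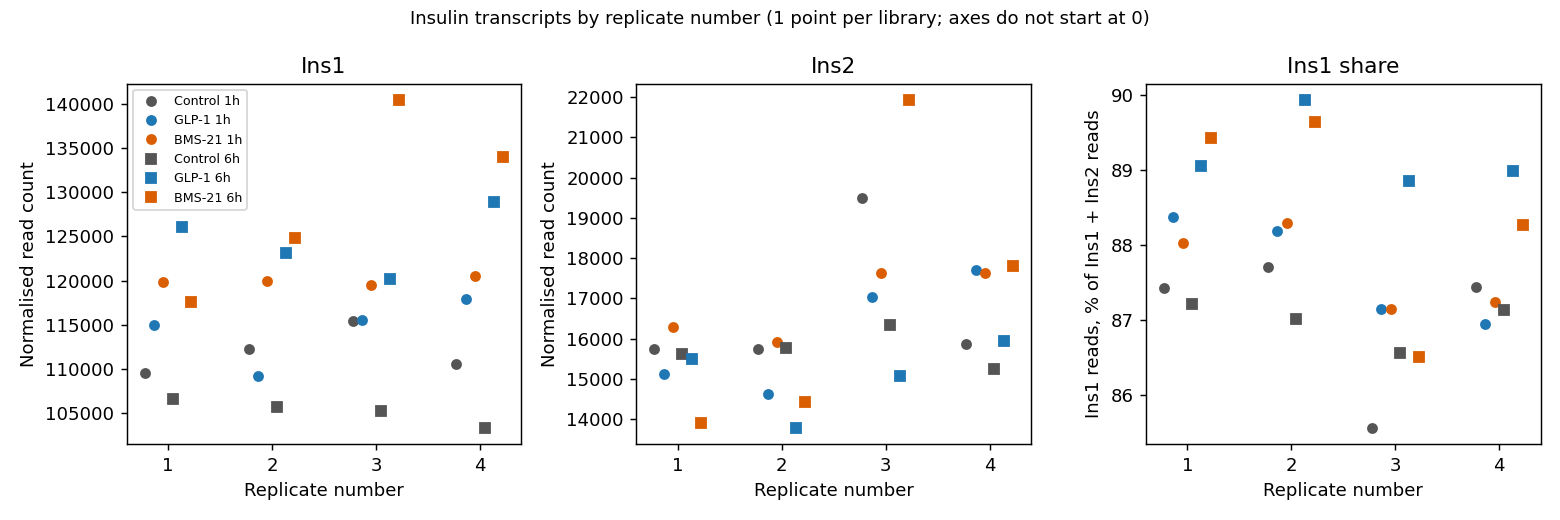
Normalised read count of Ins1 and of Ins2 and the Ins1 share of their summed reads in percent (y axes, not starting at 0) against the replicate number (x axis), 1 point per library. Circles are 1 h and squares 6 h, grey Control, blue GLP-1 and orange BMS-21. The Ins2 count of 21921 in BMS-21 at 6 h and of 19489 in Control at 1 h are both replicate 3.

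Mafa, the activator that binds the insulin promoters in response to glucose, showed the largest rise of the 10 genes at 1 h. The 4 Control libraries held 713, 711, 726 and 681 normalised counts. The GLP-1 libraries held 1148, 1263, 1245 and 1458, and the BMS-21 libraries 1172, 1244, 1137 and 1382. No treated library came near a Control library. The rise was 0.85 ± 0.06 (1.80-fold, limma adjusted p = 2.47e-11) with GLP-1 and 0.79 ± 0.05 (1.73-fold, limma adjusted p = 1.21e-10) with BMS-21.

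At 6 h the Mafa groups overlapped. Control libraries held 599, 688, 571 and 663, GLP-1 libraries 624, 730.3, 566 and 770.1, and BMS-21 libraries 614, 737, 671 and 899.5. The change was 0.09 ± 0.09 (95% interval -0.12 to 0.29, limma adjusted p = 0.520) with GLP-1 and 0.20 ± 0.11 (-0.05 to 0.46, limma adjusted p = 0.216) with BMS-21. Each BMS-21 library was above the Control library of the same number, and the BMS-21 change passed once replicate number was entered as a block (limma adjusted p = 0.00241). Without BMS-21 replicate 1 it was 0.28 and passed (limma adjusted p = 0.0346), and without BMS-21 replicate 4 it was 0.096 (limma adjusted p = 0.351). Over the 8 libraries left out in turn the adjusted p ranged from 0.0346 to 0.385.

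Pdx1, the homeodomain activator of the insulin genes and of much of the beta-cell programme, rose with both agents at both times. At 1 h its Control libraries ranged from 1215 to 1426, the GLP-1 libraries from 1551 to 1613 and the BMS-21 libraries from 1589.6 to 1613, with no overlap. The rise was 0.24 ± 0.05 (limma adjusted p = 9.66e-04) and 0.25 ± 0.05 (limma adjusted p = 0.00104). At 6 h Control ranged from 1445 to 1683, GLP-1 from 1685 to 1844 and BMS-21 from 1681 to 1783. The rise then was 0.16 ± 0.05 (limma adjusted p = 0.0115) with GLP-1 and 0.13 ± 0.04 (limma adjusted p = 0.0298) with BMS-21.

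The 6 h rise of Pdx1 was near the threshold. With GLP-1 it was lost without Control replicate 4 (limma adjusted p = 0.0528), without GLP-1 replicate 1 (0.0518) and with library totals (0.0841). With BMS-21 it was lost with DESeq2 (adjusted p = 0.0579), with library totals (limma, 0.235), within replicates 1 and 2 alone (limma, 0.107) and without Control replicate 2 or 4 or BMS-21 replicate 1 or 4 (limma adjusted p = 0.0513 to 0.128).

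Neurod1, the basic helix-loop-helix activator that binds E boxes of the insulin promoters, was the member that fell at both times. At 1 h its Control libraries held 1377, 1510.2, 1521 and 1474, the GLP-1 libraries 959, 972, 1165 and 985, and the BMS-21 libraries 855, 1004, 1158 and 1003. At 6 h Control libraries held 1733, 1770.3, 1955 and 1785, GLP-1 libraries 1199, 1208, 1379 and 1358, and BMS-21 libraries 1225, 1125, 1424 and 1189.5. Every treated library was below every Control library of its time. With GLP-1 it fell, with a log2 change of -0.53 ± 0.05 (1.45-fold, limma adjusted p = 1.15e-07) at 1 h and -0.49 ± 0.05 (1.41-fold, limma adjusted p = 1.52e-07) at 6 h. The BMS-21 values were -0.56 ± 0.07 (1.47-fold, limma adjusted p = 1.66e-04) and -0.55 ± 0.06 (1.46-fold, limma adjusted p = 1.71e-06).

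Nkx2-2, a homeodomain factor needed to form and keep beta cells, rose most at 1 h. Its Control libraries held 639, 643, 701 and 632, the GLP-1 libraries 1029, 963, 1029 and 992, and the BMS-21 libraries 1076, 1032, 948 and 978. The rise was 0.62 ± 0.05 with either agent (1.53-fold with GLP-1, limma adjusted p = 2.57e-10, and 1.54-fold with BMS-21, limma adjusted p = 5.02e-09). At 6 h the Control libraries held 492, 524, 523 and 499, GLP-1 libraries 606, 573, 614 and 599.8, and BMS-21 libraries 582, 666, 646 and 649. Treated and Control groups were still apart, with a rise of 0.23 ± 0.05 (limma adjusted p = 9.5e-04) and 0.32 ± 0.05 (limma adjusted p = 8.63e-05).

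Pax6, a paired homeodomain factor of all islet endocrine cells, rose by smaller amounts. At 1 h Control ranged from 2950.1 to 3250.4, GLP-1 from 3599 to 3879.6 and BMS-21 from 3748 to 3923, a rise of 0.29 ± 0.04 (limma adjusted p = 1.98e-06) and 0.32 ± 0.04 (limma adjusted p = 9.07e-07). At 6 h Control ranged from 2797 to 3095, GLP-1 from 3086 to 3305 and BMS-21 from 3329 to 3669. The GLP-1 group overlapped Control by 1 library and rose by 0.15 ± 0.04 (limma adjusted p = 0.00333), and the BMS-21 group was clear of it, at 0.24 ± 0.04 (limma adjusted p = 5.98e-05). The GLP-1 rise at 6 h was lost within replicates 3 and 4 alone (limma adjusted p = 0.0837).

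Isl1, the LIM homeodomain factor of islet cells, rose most at 6 h. Control libraries then held 613, 622, 649 and 683, GLP-1 libraries 944, 919, 901 and 942, and BMS-21 libraries 972, 964, 911 and 1002. The groups were far apart, with a rise of 0.53 ± 0.05 (1.45-fold, limma adjusted p = 1.21e-08) with GLP-1 and 0.58 ± 0.05 (1.5-fold, limma adjusted p = 4.29e-09) with BMS-21. At 1 h Control ranged from 638 to 719.9, GLP-1 from 780.2 to 827 and BMS-21 from 735 to 805, with no overlap. The rise with GLP-1 was 0.23 ± 0.05 (limma adjusted p = 0.00198). With BMS-21 the value was 0.17 ± 0.05 and missed the threshold (limma adjusted p = 0.0510), and it passed with the replicate block (limma adjusted p = 0.00222).

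Foxa2, a forkhead factor upstream of Pdx1, also stood farthest above Control at 6 h. Its Control mean was lower at 6 h (872) than at 1 h (1072). The means with GLP-1 were 1235 at 1 h and 1117 at 6 h, and those with BMS-21 1151 and 1158. At 6 h Control ranged from 854 to 899, GLP-1 from 1082 to 1143 and BMS-21 from 1109 to 1247. The rise was 0.36 ± 0.04 (1.28-fold, limma adjusted p = 5.35e-07) and 0.41 ± 0.05 (1.33-fold, limma adjusted p = 3.08e-07), with no overlap. At 1 h Control ranged from 1004 to 1120.1, GLP-1 from 1214 to 1279.9 and BMS-21 from 1096 to 1205. GLP-1 raised it by 0.20 ± 0.04 (limma adjusted p = 0.00245; 0.144 within replicates 3 and 4 alone). The BMS-21 value of 0.10 ± 0.05 did not pass (limma adjusted p = 0.303; 0.0173 within replicates 1 and 2 alone).

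Nkx6-1, a homeodomain repressor of other islet fates, was lower at 6 h. Control libraries held 808, 745, 706 and 727, GLP-1 libraries 631, 633, 606 and 633, and BMS-21 libraries 666, 629.9, 573 and 595. All treated libraries were below all Control libraries. It fell, with a change of -0.25 ± 0.05 (1.19-fold, limma adjusted p = 4.81e-04) with GLP-1 and -0.28 ± 0.06 (1.21-fold, limma adjusted p = 4.94e-04) with BMS-21. At 1 h Control ranged from 877 to 1077, GLP-1 from 866 to 1045 and BMS-21 from 828 to 1024, and the changes of -0.05 (95% interval -0.21 to 0.11) and -0.08 (-0.26 to 0.09) did not pass.

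The authors' deposited table gave the same calls for most of these genes at an adjusted p under 0.05. At 1 h it called Mafa at 0.84 with GLP-1 and at 0.71 with BMS-21, and Neurod1 at -0.53 and -0.48. The limma fits here gave 0.85 and 0.79 for Mafa and -0.53 and -0.56 for Neurod1. The authors' BMS-21 values for these genes at 1 h were smaller in size than those found here. The agents are therefore not compared on the authors' values. At 6 h the authors' deposited table called Isl1 at 0.53 and 0.57. Pdx1 with BMS-21 at 6 h was not called in the authors' deposited table.

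BMS-21 was compared with GLP-1 at 1 h and at 6 h, at their different doses. None of the 10 genes passed at either time by limma, edgeR or DESeq2 without a block. At an unadjusted p under 0.05 there were 2 genes at 1 h (Ins1 and Foxa2) and 1 at 6 h (Pax6). The background was 0% at 1 h, where 432 of 12672 genes had an unadjusted p under 0.05, and 0.0158% at 6 h (0.00792% higher, 0.00792% lower), where 800 of 12629 did. The widest 95% interval at 1 h was that of Neurod1, from -0.23 to 0.18, and at 6 h those of Ins2, from -0.22 to 0.53, and Mafa, from -0.22 to 0.45. Differences within these intervals were not excluded, and the size that could be detected was not computed.

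The narrower intervals bound the difference for the rest. At 1 h Nkx2-2 differed by 0.01 (95% interval -0.09 to 0.10), Pdx1 by 0.01 (-0.06 to 0.08), Pax6 by 0.03 (-0.03 to 0.10) and Mafa by -0.05 (-0.21 to 0.11). At 6 h Isl1 differed by 0.05 (-0.04 to 0.14) and Foxa2 by 0.05 (-0.04 to 0.14). Foxa2 at 1 h was lower with BMS-21 without overlap, at -0.10 (-0.19 to -0.02), and Pax6 at 6 h was higher without overlap, at 0.09 (0.01 to 0.17). Neither passed after adjustment (limma adjusted p = 1 and 0.745).

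The insulin genes at 1 h changed their call with the replicate block, under which 28 genes were higher and 57 lower of all 12672 in limma. Ins1 was 0.07 higher with BMS-21 (95% interval 0.01 to 0.12), every BMS-21 library being above every GLP-1 library, and passed with the block in limma (adjusted p = 2.0e-05) and edgeR (adjusted p = 0.0078). Ins2 was also 0.07 higher, in 3 of 4 same-numbered pairs, and passed with the block in limma (adjusted p = 0.0117) and edgeR (adjusted p = 0.0232). At 6 h the Ins1 difference of 0.05 (95% interval -0.05 to 0.15) did not pass with or without the block.

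Control cells themselves differed between 6 h and 1 h. Neurod1 and Pdx1 were higher at 6 h, and Nkx6-1, Nkx2-2, Foxa2, Ins1 and Pax6 were lower, by edgeR on the recovered reads. Across all 13114 genes 52.9% passed, 26.0% higher and 26.9% lower, so a count of 7 of 10 stands near that background. Both Control groups had fresh medium at 11 mM glucose from the same step, and time in it cannot be told apart from time in vehicle.

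From 1 h to 6 h in Control, Nkx6-1 moved from a mean of 969 (877 to 1077) to 747 (706 to 808), a change of -0.38 ± 0.07 (edgeR adjusted p = 3.88e-05). Nkx2-2 moved from 654 ± 31.8 to 509.6 ± 16.6 (SD, n = 4), or -0.37 ± 0.05 (edgeR adjusted p = 1.26e-07), and Foxa2 from 1072 ± 49.6 to 872 ± 21.0, or -0.31 ± 0.04 (edgeR adjusted p = 1.51e-07). Neurod1 moved from 1471 ± 65.2 to 1811 ± 98.6, or 0.29 ± 0.08 (edgeR adjusted p = 0.00387), and Pdx1 from 1351 ± 98.6 to 1565 ± 97.8, or 0.21 ± 0.04 (edgeR adjusted p = 1.32e-04). In each of these 5 genes, and in Ins1, the 2 Control groups did not overlap. The share of all genes without overlap was not counted.

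The smaller Control changes were less settled. Ins1 was lower, at -0.10 ± 0.04 (edgeR adjusted p = 0.0265), a call lost with library totals (0.0931), within replicates 1 and 2 alone (0.104) and without Control 1 h replicate 3 (0.0884) or Control 6 h replicate 4 (0.0671). Pax6 was lower, at -0.09 ± 0.04 (edgeR adjusted p = 0.0342), a call lost with DESeq2 (0.0619), with library totals (0.115), without a filter (0.0619), within replicates 3 and 4 alone (0.129) and without any of 5 libraries (Control 1 h replicates 1 and 3, Control 6 h replicates 1, 2 and 4; 0.0506 to 0.164). Mafa at -0.18 ± 0.11 (edgeR adjusted p = 0.208) and Isl1 at -0.10 ± 0.05 (0.0666) passed with the replicate block (0.0348 and 0.0425).

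The response itself was then compared between the times, as the change against Control at 6 h minus that at 1 h. With GLP-1 4 of the 10 genes passed, 2 upward and 2 downward, against 17.3% of all genes (8.3% higher, 9.01% lower). With BMS-21 5 passed, 3 upward and 2 downward, against 21.7% (10.8% higher, 10.9% lower). Mafa responded less at 6 h, with differences of -0.76 ± 0.16 with GLP-1 (edgeR adjusted p = 0.00168) and -0.58 ± 0.16 with BMS-21 (edgeR adjusted p = 0.0106). Nkx2-2 did too, at -0.39 ± 0.07 (edgeR adjusted p = 8.97e-05) and -0.30 ± 0.07 (edgeR adjusted p = 0.00145).

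Isl1 and Ins1 moved the other way. The response of Isl1 was larger at 6 h by 0.29 ± 0.06 with GLP-1 (edgeR adjusted p = 9.51e-04) and by 0.41 ± 0.06 with BMS-21 (edgeR adjusted p = 6.19e-06). That of Ins1 was larger by 0.21 ± 0.05 (edgeR adjusted p = 0.00313) and 0.20 ± 0.05 (edgeR adjusted p = 0.00444). Foxa2 passed with BMS-21, at 0.31 ± 0.06 (edgeR adjusted p = 1.61e-04), and not with GLP-1, at 0.15 ± 0.06 (edgeR adjusted p = 0.0737), and whether these 2 differ was not tested. Foxa2 in Control itself changed by -0.31 ± 0.04 between the times (edgeR adjusted p = 1.51e-07). For Neurod1 the change of response was 0.03 (95% interval -0.21 to 0.28) with GLP-1 and 0.00 (-0.24 to 0.25) with BMS-21.

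With the replicate block 1621 genes were higher and 1708 lower of all 13114 for GLP-1, against 1089 and 1181 without it, and the count among the 10 genes went from 4 to 7, adding Nkx6-1 (-0.21, edgeR adjusted p = 0.00837), Pax6 (-0.14, edgeR adjusted p = 0.00525) and Foxa2 (0.15, edgeR adjusted p = 0.0260). With BMS-21, where the block gave 1938 higher and 1913 lower genes against 1411 and 1433, it added Nkx6-1 (-0.19, edgeR adjusted p = 0.0124). Within replicates 3 and 4 alone the changes of Mafa did not pass (-0.83 with GLP-1, edgeR adjusted p = 0.162, and -0.48 with BMS-21, edgeR adjusted p = 0.372). Nor did Isl1 with GLP-1 (edgeR adjusted p = 0.169) or Nkx2-2 with BMS-21 (edgeR adjusted p = 0.177) there, and within replicates 1 and 2 alone Ins1 with BMS-21 did not (edgeR adjusted p = 0.310).

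**Figure D4:**
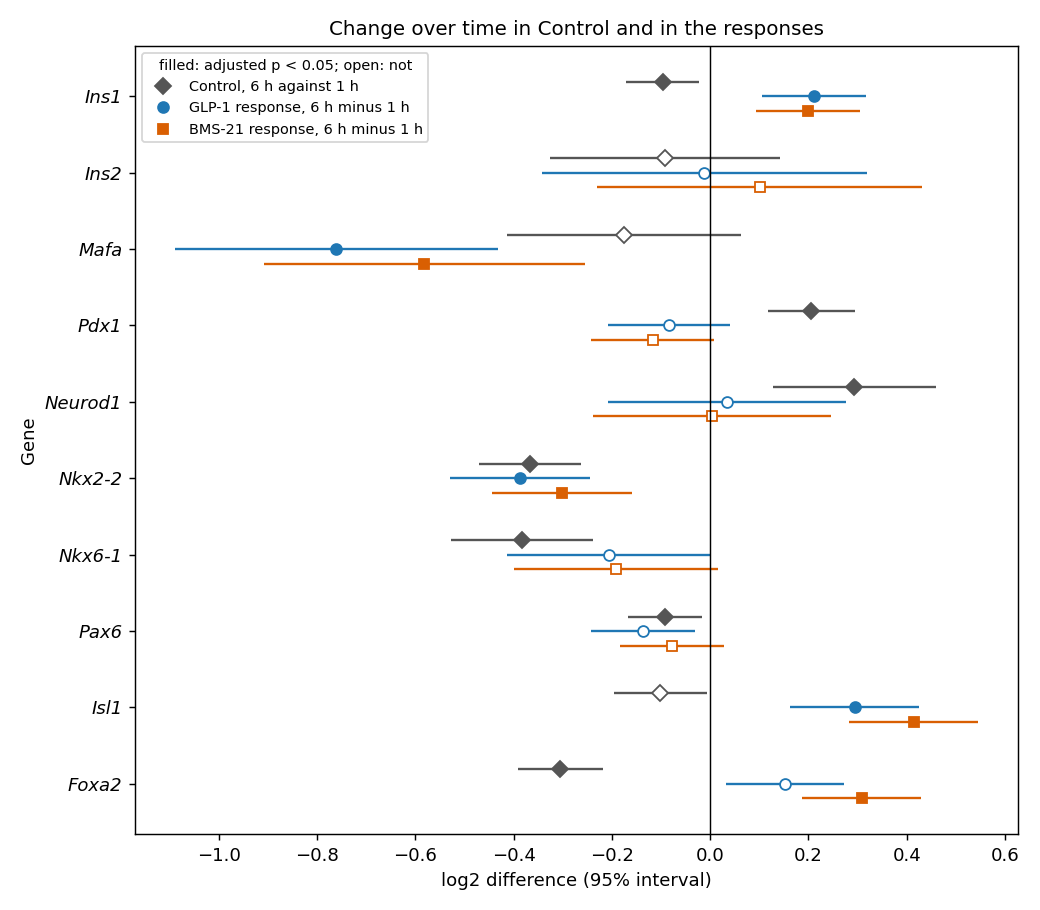
Log2 difference (x axis, 95% intervals from edgeR) for each gene (y axis): Control at 6 h against 1 h (grey), and the change of the GLP-1 (blue) and BMS-21 (orange) response from 1 h to 6 h. Filled symbols passed the test. Mafa and Nkx2-2 lie left of 0 in both responses, Ins1 and Isl1 lie right of 0, and Nkx2-2, Nkx6-1 and Foxa2 lie left of 0 in Control.

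Replicates 3 and 4 stood apart from replicates 1 and 2 in the transcriptome as a whole, and some of the 10 genes moved with that split. On average over the 6 groups Ins2 was 0.18 and Neurod1 0.14 higher (log2) in replicates 3 and 4, each in 6 of 6 groups. Nkx6-1 (-0.16) and Pdx1 (-0.07) were lower there in 6 of 6. For Mafa, Nkx2-2, Pax6, Isl1, Foxa2 and Ins1 the direction differed between groups. Each group has both kinds of replicate.

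Other islet transcription factors were read beside the 10 genes, 13 of 16 listed genes being tested in each comparison with Control. At 1 h GLP-1 raised 3 and lowered 1, and BMS-21 did the same, the median being 0.0069 and 0.06. Of all genes 6.58% passed with GLP-1 and 5.91% with BMS-21. Prox1, a homeodomain factor of endocrine progenitors, rose by 1.48 ± 0.08 with GLP-1 (limma adjusted p = 1.81e-13) and 1.34 ± 0.09 with BMS-21 (limma adjusted p = 1.38e-10). The zinc-finger factor Myt1 rose with both, by 0.16 ± 0.03 with GLP-1 (limma adjusted p = 0.00221) and 0.12 ± 0.03 with BMS-21 (limma adjusted p = 0.0286), and the homeodomain factor Mnx1 rose by 0.25 ± 0.07 with BMS-21 (limma adjusted p = 0.0215).

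At 6 h GLP-1 raised 4 and lowered 3 of those 13 factors, and BMS-21 raised 5 and lowered 4. Of all genes 31.7% passed with GLP-1 and 33.6% with BMS-21 at that time. Glis3, a zinc-finger activator of insulin genes, fell with a change of -0.84 ± 0.05 (limma adjusted p = 2.69e-11) and -0.79 ± 0.06 (limma adjusted p = 4.76e-10). St18, a relative of Myt1, rose by 0.42 ± 0.04 (limma adjusted p = 1.65e-07) and 0.44 ± 0.04 (limma adjusted p = 1.83e-08). Neurog3, the factor that starts endocrine differentiation, was at 0 in all 24 libraries.

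Of 9 partners and cofactors 7 were tested, where 6.58% of all genes passed at 1 h with GLP-1 and 5.91% with BMS-21. Ldb1, the adaptor that binds Isl1 through its LIM domain, fell at 1 h with a change of -0.16 ± 0.04 with GLP-1 (limma adjusted p = 0.0312) and -0.20 ± 0.05 with BMS-21 (limma adjusted p = 0.0290), the only one of the 7 to pass at that time. At 6 h it fell with a change of -0.58 ± 0.05 (limma adjusted p = 5.96e-07) and -0.72 ± 0.05 (limma adjusted p = 4.44e-10), while Isl1 rose. The acetyltransferase gene Kat2b fell with a change of -0.29 ± 0.07 (limma adjusted p = 0.00327) and -0.31 ± 0.07 (limma adjusted p = 7.5e-04). Setd7, a methyltransferase recruited by Pdx1, rose by 0.20 ± 0.06 with GLP-1 (limma adjusted p = 0.0210), and Ssbp3, a cofactor of Ldb1, fell with a change of -0.15 ± 0.04 with BMS-21 (limma adjusted p = 0.00920) and -0.13 ± 0.05 with GLP-1 (limma adjusted p = 0.0404). In all, 1 rose and 3 fell with GLP-1 and 0 rose and 4 fell with BMS-21 at 6 h. The shares of all genes that passed were 31.7% and 33.6%. Tcf4 was at 0 in all 24 libraries.

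Antagonists of these factors moved in both directions. Of 6 tested at 1 h, 2 rose and 2 fell with each agent, where 6.58% of all genes passed with GLP-1 and 5.91% with BMS-21. Hes1, the Notch-dependent repressor of endocrine genes, fell with a change of -0.95 ± 0.08 with GLP-1 (limma adjusted p = 1.31e-09) and -0.90 ± 0.08 with BMS-21 (limma adjusted p = 2.15e-08). Id2, which sequesters the partners of Neurod1, rose by 0.68 ± 0.07 (limma adjusted p = 3.71e-08) and 0.69 ± 0.07 (limma adjusted p = 1.68e-07). Id4, of the same family, rose by 1.78 ± 0.10 with GLP-1 (limma adjusted p = 1.47e-05) and 1.80 ± 0.11 with BMS-21 (limma adjusted p = 5.2e-05), and Foxo1, a forkhead factor that can restrain Pdx1, fell with a change of -0.37 ± 0.05 with GLP-1 (limma adjusted p = 1.4e-05) and -0.29 ± 0.05 with BMS-21 (limma adjusted p = 0.000823).

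At 6 h 2 of the 6 antagonists rose and 2 fell with GLP-1, and 4 rose and 2 fell with BMS-21. The background was 31.7% of all genes with GLP-1 and 33.6% with BMS-21. Id4 rose by 1.57 ± 0.09 (limma adjusted p = 2.63e-06) and 1.65 ± 0.12 (limma adjusted p = 2.49e-05). Id2 rose by 0.40 ± 0.08 (limma adjusted p = 3.81e-04) and 0.60 ± 0.09 (limma adjusted p = 3.36e-05), and Hes1 fell with a change of -0.98 ± 0.08 (limma adjusted p = 7.55e-09) and -0.83 ± 0.11 (limma adjusted p = 8.86e-06). None of the 6 passed for a change of either response between the times by edgeR, where 17.3% of all genes passed with GLP-1 and 21.7% with BMS-21.

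Of 13 beta-cell effector genes tested at 1 h, where 6.58% of all genes passed with GLP-1 and 5.91% with BMS-21, 0 rose and 1 fell with each agent: Ffar1, the fatty acid receptor, at -0.68 ± 0.10 (limma adjusted p = 1.05e-05) and -0.72 ± 0.09 (limma adjusted p = 6.86e-06). At 6 h, where 31.7% and 33.6% of all genes passed, 5 rose and 5 fell with GLP-1 and 5 rose and 4 fell with BMS-21. Slc2a2, the glucose transporter GLUT2, fell with a change of -0.67 ± 0.03 (limma adjusted p = 7.97e-13) and -0.68 ± 0.03 (limma adjusted p = 9.86e-13). Ffar1 fell with a change of -0.80 ± 0.08 (limma adjusted p = 5.16e-08) and -0.88 ± 0.07 (limma adjusted p = 5.69e-09), and Pcsk2, a proinsulin convertase, rose by 0.27 ± 0.03 (limma adjusted p = 1.08e-07) and 0.37 ± 0.04 (limma adjusted p = 1.26e-07).

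Of 5 genes kept low in mature beta cells 3 were tested, and at 6 h the hormone gene Gast rose by 0.34 ± 0.13 with GLP-1 (limma adjusted p = 0.0442) and 0.47 ± 0.12 with BMS-21 (limma adjusted p = 0.00461). The other 2 did not pass with either agent at 6 h, where 31.7% of all genes passed with GLP-1 and 33.6% with BMS-21. None of the 3 passed at 1 h with limma, where 6.58% and 5.91% of all genes passed. Among 3 markers of other cells tested, only Sox9, a duct and progenitor factor, passed at 1 h. It rose by 1.09 ± 0.26 (limma adjusted p = 0.0152) and 0.89 ± 0.22 (limma adjusted p = 0.0137). At 6 h Sox9 did not pass with either agent (limma adjusted p = 0.810 and 0.235). Gcg, the glucagon gene, rose with BMS-21 at 6 h by 0.39 ± 0.13 (limma adjusted p = 0.0226), from levels of 78.8 to 169 over all libraries. With GLP-1 at 6 h it did not pass, at 0.21 ± 0.10 (limma adjusted p = 0.139).

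In Control from 1 h to 6 h, the factors Rfx3 and Myt1 fell most clearly, with changes of -1.26 ± 0.05 (edgeR adjusted p = 8.8e-22) and -0.98 ± 0.04 (edgeR adjusted p = 5.08e-23). Of 14 islet factors 2 were higher and 5 lower, near the background of 52.9% of all genes. Glp1r, which encodes the GLP-1 receptor, fell with a change of -0.51 ± 0.04 (edgeR adjusted p = 1.68e-13). Ldb1 rose by 0.47 ± 0.06 (edgeR adjusted p = 4.32e-07) and Foxo1 fell with a change of -0.42 ± 0.06 (edgeR adjusted p = 6.67e-08).

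The responses of several context genes also differed between the times, where 17.3% of all genes passed with GLP-1 and 21.7% with BMS-21. Of 14 islet factors 3 passed upward and 5 downward with GLP-1, and 3 and 6 with BMS-21. Of 13 effector genes 5 passed upward and 4 downward with GLP-1, and 4 and 4 with BMS-21. Prox1 responded less at 6 h, at -1.07 ± 0.15 with GLP-1 (edgeR adjusted p = 8.87e-07) and -1.01 ± 0.15 with BMS-21 (edgeR adjusted p = 2.35e-06), the direction in which Mafa and Nkx2-2 moved. Slc2a2 moved by -0.69 ± 0.05 (edgeR adjusted p = 9.94e-14) and -0.72 ± 0.05 (edgeR adjusted p = 1.71e-14). Kcnj11, a subunit of the ATP-sensitive potassium channel, moved by 0.39 ± 0.07 (edgeR adjusted p = 7.52e-05) and 0.46 ± 0.07 (edgeR adjusted p = 5.21e-06).

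**Figure D5:**
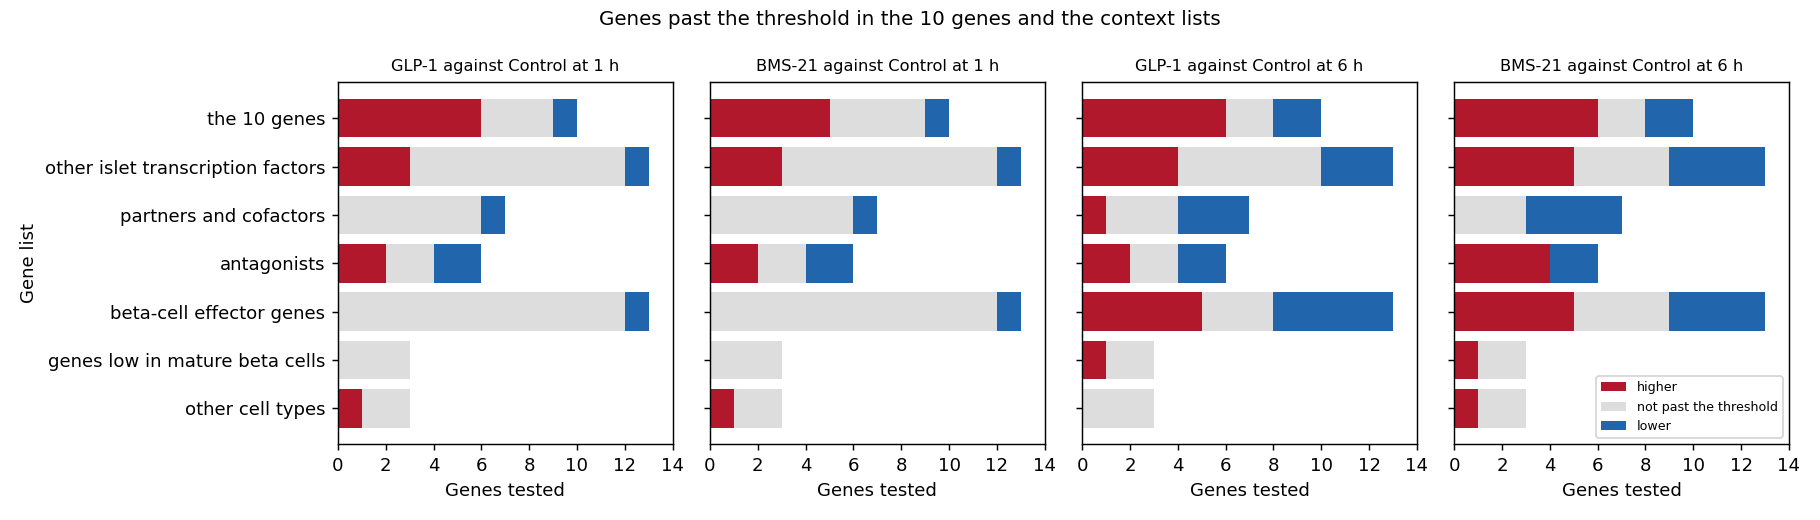
Number of genes tested (x axis) that were higher, lower or not past the threshold in the 10 genes and the 6 context lists (y axis) for each agent at each time against Control. The 10 genes have 7 and 6 past the threshold at 1 h and 8 at 6 h with either agent, and the effector genes go from 1 at 1 h to 10 and 9 at 6 h. Of all genes 6.58% and 5.91% passed at 1 h and 31.7% and 33.6% at 6 h.

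Other genes were ranked by how closely their 6 group means followed those of a member, as the root mean square difference of centred log2 means, for the 6 members that spanned at least 0.5 log2 over the groups. Nearest to Mafa (span 1.02) were Adra2a (0.0679), Zc3h12c (0.0718) and B3gnt2 (0.0747). Nearest to Nkx2-2 (span 0.98) were Zc3h12c (0.0418), Flrt3 (0.0527) and B3gnt2 (0.0594), so that Mafa and Nkx2-2 have 2 of their 3 nearest genes in common. Neurod1 (span 0.86) was followed by C2cd4c (0.0651), Foxo6 (0.0679) and Ovol2 (0.0708).

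Nkx6-1 (span 0.65) was followed most closely of all, by Ttll1 (0.0198), Sun2 (0.0215) and Cacnb2 (0.0220). Isl1 (span 0.58) was followed by Smim14 (0.0304), Rusc2 (0.0342) and Crb3 (0.0425), and Foxa2 (span 0.50) by Epm2aip1 (0.0310), Eif1a (0.0381) and Tmem251 (0.0405). Ins1, Ins2, Pdx1 and Pax6 spanned 0.29, 0.16, 0.37 and 0.41 and were not ranked.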

How the data were processed

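Per the labels, total RNA of INS-1 cells was made into 24 libraries with a TruSeq RNA kit, of a version that does not mark strand. Tools named in the submitters' processing notes are TopHat2 2.0.12, Bowtie2 2.2.3.0, SAMtools 0.1.19.0, Subread, DESeq and DESeq2 1.6.3 with the build Rnor_5.0; their roles and the gene annotation are not given in the sources used here. The authors deposited 6 tables of 8 libraries each, every library appearing in 2 of them. They hold the authors' normalised counts (a signal, reads divided by a size factor per library within a table), beside the authors' deposited log2 fold change and adjusted p-value. Of the values 100% were whole multiples of a library's step within 0.001, which gave back reads that were identical between a library's 2 tables. Since size factors were set within a table, levels shown over all 24 libraries were rescaled here by median-of-ratios factors.

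Within a time, groups were tested with limma 3.58.1 under R 4.3.3, with its trend and robust settings, on log2(normalised count + 1); a gene needed an average of 10 or more across the table's 8 libraries. Comparisons across times used the reads of all 24 libraries in edgeR 4.0.16, with TMM factors, filterByExpr and the quasi-likelihood test. Adjusted p-values are Benjamini-Hochberg over all genes tested. The fits were tested on simulated data with the same dispersion for every gene and no split between replicates. That test does not cover the split of replicates 1 and 2 from 3 and 4 in these data, and its outcome is not given. The alternatives were pseudocounts of 0.5 and 5, a filter at 50 or none, other scalings (TMM, median-of-ratios factors, library totals), edgeR, DESeq2 1.42.0 and limma in place of each other, the replicate block, leaving out each library, and replicates 1 and 2 or 3 and 4 alone.

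Replicate numbers were checked for pairing from the data: after removing group means, same-numbered libraries correlated by 0.125 to 0.406 in 24 pairs over 10790 genes. Libraries of different numbers were not compared. This check therefore cannot tell pairing by number from the split of replicates 1 and 2 from 3 and 4. On the first principal component (25.9% of variance) replicates 1 and 2 (at most -3.88) and 3 and 4 (at least 3.49) were apart. Within groups no library was a duplicate of another (chi-squared divided by degrees of freedom was 1.30 to 5.44 in 36 pairs). Pairs from different groups were not checked.

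The 10 genes and the 6 context lists were chosen with earlier results of these data known. The text names all 10 genes, up to 3 genes per list and comparison with the smallest adjusted p past the threshold, and 3 genes with an official symbol and a mean of at least 50 nearest to each member that spans at least 0.5 log2; a gene that this rule would name is not reported here. Irx2, Neurog3, Tcf4, Ucn3 and Ghrl are named for their levels alone, chosen after those were seen. Sequences are from RefSeq (GRCr8).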

Additional observations from a re-analysis of the deposited data

Results flagged for a closer look

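Within groups of 4 libraries, 6 of 60 gene and group combinations held a library that stood apart from the other 3, where chance alone gives about 1 in 20, or 3 of 60. For Ins2 in Control at 1 h replicate 3 held 19489 normalised counts and the others 15739 to 15881. For Nkx2-2 in the same library it held 701 against 632 to 643. Neurod1 in GLP-1 at 1 h replicate 3 was 1165 against 959 to 985, Nkx6-1 in GLP-1 at 6 h replicate 3 was 606 against 631 to 633, and Pax6 in BMS-21 at 6 h replicate 3 was 3669 against 3329 to 3378. Pdx1 in BMS-21 at 6 h replicate 1 was 1783 against 1681 to 1695. Of these 6, 5 are a replicate 3 and in 4 different groups.

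The response differed between 1 h and 6 h by the interaction test in 9 results, each a log2 change at 6 h minus that at 1 h. With GLP-1 these were Mafa at -0.76, Nkx2-2 at -0.39, Isl1 at 0.29 and Ins1 at 0.21. With BMS-21 they were Mafa at -0.58, Nkx2-2 at -0.30, Isl1 at 0.41, Foxa2 at 0.31 and Ins1 at 0.20. All 9 share the Control libraries with the other agent's result at the same times.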

How the results depend on the processing

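Over 1840 alternatives of the 90 results on single genes, 45 of which passed, no result that passed changed its direction, and 33 of the 45 passed in every alternative. With the replicate block the count at 1 h for BMS-21 against GLP-1 was 2 in place of 0 (also 2 by edgeR with the block), beside 28 higher and 57 lower of 12672 genes, and that for the change of the GLP-1 response 7 in place of 4, beside 1621 and 1708 of 13114. The block changed no call beyond those given beside the results. Within replicates 3 and 4 alone the counts for the change of response were 2 in place of 4 with GLP-1 and 3 in place of 5 with BMS-21, from 2 libraries a group, beside 778 higher and 847 lower of 13092 genes with GLP-1 and 1162 and 1128 with BMS-21.

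Leaving out 1 library at a time gave counts of 7 to 7 with GLP-1 at 1 h, 5 to 6 with BMS-21 at 1 h, 7 to 8 with each agent at 6 h, 0 to 0 for BMS-21 against GLP-1 at both times, 5 to 8 for Control over time, 4 to 5 for the change of the GLP-1 response and 5 to 5 for that of BMS-21.

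Reversals concerned values that had not passed. With library totals they were Ins1 with GLP-1 at 1 h (-0.0034), Ins2 with BMS-21 at 1 h (-0.016) and the change of the BMS-21 response of Neurod1 (-0.023). Within replicates 1 and 2 alone they were Ins2 with BMS-21 at 6 h (-0.15) and its change of response (-0.18), Mafa for BMS-21 against GLP-1 at 1 h (0.00093), and at 6 h Ins1 (-0.042), Ins2 (-0.047), Mafa (-0.0062), Nkx6-1 (0.035) and Foxa2 (-0.0080). Within replicates 3 and 4 alone they were Ins2 with BMS-21 at 1 h (-0.0022), Neurod1 (0.0078) and Nkx2-2 (-0.069) for BMS-21 against GLP-1 at 1 h, and the change of the BMS-21 response of Neurod1 (-0.045). The cause was not tested.

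Leaving out 1 library also turned the sign of some of these small values, whose ranges were as follows. With GLP-1 at 1 h the ranges were Nkx6-1 -0.11 to 0.0031 and Ins2 -0.096 to 0.025. With BMS-21 at 1 h the range was Ins2 -0.012 to 0.091. With BMS-21 at 6 h the range was Ins2 -0.044 to 0.17. For BMS-21 against GLP-1 at 1 h the ranges were Nkx2-2 -0.026 to 0.035, Nkx6-1 -0.091 to 0.022, Neurod1 -0.097 to 0.048, Mafa -0.11 to 0.012 and Pdx1 -0.0036 to 0.019. For BMS-21 against GLP-1 at 6 h the ranges were Pdx1 -0.045 to 0.0040 and Nkx6-1 -0.063 to 0.0099. For the change of the GLP-1 response the ranges were Ins2 -0.094 to 0.039 and Neurod1 -0.0026 to 0.10. For the change of the BMS-21 response the ranges were Neurod1 -0.068 to 0.082 and Ins2 -0.045 to 0.19.

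Library totals moved the median of all genes by less than 0.1 log2 in every comparison. Depth did not limit any of the 10 genes to near the 3-read floor.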
